A study of Mus musculus with 4 samples.

Results

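The large antigen receptor loci of the mouse were followed along the replication profile of embryonic stem cells with and without Snf2h. There are 4 of them: the immunoglobulin heavy chain locus Igh, the immunoglobulin kappa light chain locus Igk, the T cell receptor alpha locus Tcra, which has the delta genes inside it, and the T cell receptor beta locus Tcrb. Their windows were set by position and not by their values, but the loci were chosen with earlier results of these data known. They are the 100 kb windows, set every 25 kb on GRCm38, whose starts lie from 112500001 to 116500001 on chromosome 12 (Igh), from 67000001 to 71300001 on chromosome 6 (Igk), from 52000001 to 54800001 on chromosome 14 (Tcra) and from 40500001 to 42000001 on chromosome 6 (Tcrb). Of 508 windows in these ranges, 492 had a value in all 4 libraries, out of 109033 windows in the whole table. Igh gave 161 of them, Igk 173, Tcra 97 of 113 and Tcrb 61.

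TrAEL-seq captures free 3′ ends of DNA, which in growing cells lie mainly at replication forks, and so reads on which strand those ends fall. It was applied to 2 wild-type (WT) cultures and 2 cultures lacking Snf2h (Snf2h KO), the ATPase of the ISWI chromatin remodelling complexes. Both genotypes are labelled 129S6/SvEvTac embryonic stem cells, and both were grown with serum and LIF on gelatin. Each window carries a polarity per library, which is the signed strand imbalance of the captured ends in percentage points (called points below) between -50 and 50. The labels do not say whether the KO cells are a single clone, and neither RNA nor protein was measured, so the cell type and the loss of Snf2h rest on the labels.

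Antigen receptor genes are assembled by V(D)J recombination, in which the RAG recombinase joins a variable (V), a joining (J) and, at Igh, Tcrb and the delta genes, a diversity (D) gene in developing lymphocytes. The joined segment is expressed with a constant (C) gene that lies at one end of a long array of V genes. Stem cells carry these loci unrearranged. Igh is a textbook replication timing transition outside the B lineage: its C end is copied early in S phase, its far V genes late, and the DNA between them is crossed by forks of one direction. A long stretch of polarity on one side of 0 is the form such a crossing takes in a strand profile. A steep change of sign marks a place where forks of opposite directions leave or meet, but which of these a rise stands for is not given in the sources used here.

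The gene maps were taken from RefSeq on GRCm38.p6. Igh holds 120 V genes, 63 V pseudogenes, 10 D, 4 J and 8 C genes on chromosome 12 from 113256204 to 116009954. Igk has 102 V genes, 60 V pseudogenes, 5 J genes and 1 C gene on chromosome 6 from 67555636 to 70726754. Tcra with its delta genes has 119 V genes, 17 V pseudogenes, 2 D, 53 J and 2 C genes on chromosome 14 from 52427967 to 54224198. Tcrb is the smallest, with 22 V genes, 13 V pseudogenes, 2 D, 13 J and 2 C genes on chromosome 6 from 40891296 to 41558371. The C genes of Igh lie at the low-coordinate end, whereas those of the other loci lie at or near the high-coordinate end.

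At each locus the C genes lay beside, or inside the edge of, a rise of the profile over neighbouring genes that are not receptor genes. A rise or a fall here is a segment of the mean profile of all libraries between a local low and the next local high, or the reverse. The profile was smoothed over 5 windows, and a change of at least 14.8 points, its SD, was required. The rise had its midpoint 83.2 kb from the C gene Igha at Igh, 123 kb from Igkc at Igk, 240 kb from Trac at Tcra and 40.0 kb from Trbc2 at Tcrb. Each distance is to the nearest C gene, and relative to Ighm the Igh midpoint lay at -244 kb. Among all autosomal rises, 36.6%, 38.9%, 23.2% and 37.3% were as large as those at Igh, Igk, Tcra and Tcrb. The ranges hold 13 rises, and how often a rise lies as near to other genes was not tested. Shown here, 5′ to 3′ on the gene's strand, are the 250 bases before the RefSeq start (GRCm38.p6) that lie nearest to each midpoint and outside every gene interval, with CG dinucleotides in capitals. They are shown because they lie in the rises next to the C genes. CG reads the same on both strands, and 92.1% of 32851 RefSeq promoter windows of this length hold at least 1, with a median of 6.
Tmem121: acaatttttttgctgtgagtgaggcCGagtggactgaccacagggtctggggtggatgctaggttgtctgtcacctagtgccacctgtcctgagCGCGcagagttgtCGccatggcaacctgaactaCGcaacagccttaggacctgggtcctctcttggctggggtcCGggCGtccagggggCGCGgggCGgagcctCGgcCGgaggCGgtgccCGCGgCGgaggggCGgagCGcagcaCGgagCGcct
Gm30331: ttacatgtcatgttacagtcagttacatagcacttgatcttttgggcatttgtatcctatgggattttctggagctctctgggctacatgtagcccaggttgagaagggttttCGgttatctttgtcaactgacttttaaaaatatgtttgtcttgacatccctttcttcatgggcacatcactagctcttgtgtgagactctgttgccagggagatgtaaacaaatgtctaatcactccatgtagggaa
Rem2: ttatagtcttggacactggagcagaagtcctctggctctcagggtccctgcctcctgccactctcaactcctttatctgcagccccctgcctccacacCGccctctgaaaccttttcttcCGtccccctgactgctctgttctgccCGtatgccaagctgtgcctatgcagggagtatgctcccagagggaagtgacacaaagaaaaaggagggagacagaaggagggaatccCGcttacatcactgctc
Trpv6: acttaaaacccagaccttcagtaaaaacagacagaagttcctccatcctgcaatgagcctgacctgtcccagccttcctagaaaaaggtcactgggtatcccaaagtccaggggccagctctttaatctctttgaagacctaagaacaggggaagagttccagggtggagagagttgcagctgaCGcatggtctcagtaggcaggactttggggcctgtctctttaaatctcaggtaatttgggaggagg
The Tmem121 promoter (chr12:113185653-113185902, plus strand) holds 20 CG and 66.4% G and C, and 17.9% of promoter windows hold as many CG. That of Gm30331 (chr6:70814792-70815041, minus strand) holds 1 CG, a number reached by 92.1%. The Rem2 promoter (chr14:54475850-54476099, plus strand) holds 4, a number reached by 62.2%. In the Trpv6 promoter (chr6:41636406-41636655, minus strand) there is again 1. Of these 4 promoters, that at Igh holds more CG than the median and those at the other loci hold fewer, which describes these letters only. They were the nearest of 3, 4, 9 and 2 promoters outside gene intervals, among 10, 7, 28 and 7 promoters in the rises, and lie 10.9, 35.2, 13.6 and 48.9 kb from the midpoints of Igh, Igk, Tcra and Tcrb.

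Read depth is unknown, since the table gives no counts. The libraries had no value in 7641 to 8249 of all windows, with the most in the KO libraries. The SD of polarity over autosomal windows was 14.6 and 12.8 points in WT replicates 1 and 2, and 19.4 and 14.5 points in KO replicates 1 and 2, so KO replicate 1 had the widest profile. The label of WT replicate 2 carries the same index as that of WT replicate 1, while its column name carries another. Its column was matched to the label by genotype and replicate number. The other libraries carry 1 index in both places. The DNA is from 129S6/SvEvTac cells and the reference is from C57BL/6J; the part of that difference in the values was not tested.

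At Igh, in profiles smoothed over 5 windows, a single stretch of positive polarity covered the C, J and D genes and went on into the V array in both WT libraries, while in both KO libraries it was shorter and was broken by windows below 0. Without smoothing, the lengths of this stretch overlapped between the genotypes. Over the D, J and C genes (15 windows, Igha to Ighd5-1) mean polarity was 27.1 and 25.4 points in WT replicates 1 and 2. In KO replicates 1 and 2 it was 36.7 and 32.8 points. Both KO libraries thus lay above both WT libraries, by 8.52 points on average against a pooled replicate SD of 2.09 points. This holds on the deposited scale, where the SD over autosomal windows was 14.6 and 12.8 points in WT against 19.4 and 14.5 in KO. Whether the gap stays with each library divided by its SD was not tested. Such means are given without a test; an exact permutation test of 2 against 2 libraries cannot give a p below 0.333.

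The window around Ighm, which encodes the mu chain of IgM and is the first C gene a B cell uses, was the highest of the mean profile at Igh. It read 28.3 and 26.0 points in WT against 37.9 and 35.5 in KO. The 9.54 point difference (SE 4.49) did not pass limma's test (adjusted p = 0.410 among overlapping windows). At Igha, the last C gene, which encodes the heavy chain of IgA, the genotypes overlapped, with 23.9 and 29.1 points in WT against 42.3 and 26.4 in KO. Over all of Igh, both KO libraries lay on one side of both WT libraries in 57 of 161 windows (35.4%), below the 44.6% of all 94694 autosomal windows. Windows of 6 of the 8 C genes were among them, but these 8 genes lie in 7 windows that share most of their DNA.

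In every library polarity was lower toward the far end of the V array than at its C end. The first V gene, the pseudogene Ighv5-1, lay in a window of 30.0 and 21.2 points in WT against 28.9 and 37.8 in KO. Over the part of the V array nearer to the C genes, divided at its middle, the means were 11.1 and 10.7 points in WT against 12.9 and 6.82 in KO. In the far part they were -7.89 and -8.24 points in WT against -8.96 and -2.93 in KO. The sign thus turned within the V array in all 4 libraries, and in both parts the KO values lay on either side of the WT values.

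The slope over the 97 V windows was -1.60 and -1.70 points per 100 kb in WT against -1.70 and -0.934 in KO. The lowest window of the mean profile lay near the far end, from 115850001 to 115950000, over V genes from Ighv8-16 to Ighv1-81. Its values were -31.4 and -32.1 points in WT against -35.7 and -19.7 in KO. The last V gene, Ighv1-86, had -20.8 and -24.3 points in WT against -28.0 and -22.0 in KO. In both windows the genotypes overlapped, and the KO replicates differed by more than the genotype means did. Beyond it lie Zfp386, a zinc finger gene, Vipr2, a receptor for the peptide VIP, and Wdr60, a cilium gene; at Wdr60 the 4 libraries were between -16.5 and -13.8 points. The window around Zfp386 read -21.3 and -21.8 points in WT against -20.4 and -13.8 in KO, so both KO libraries were higher, by 4.45 points on average (pooled SD 3.31). Around Vipr2 the genotypes overlapped, with -15.5 and -8.08 points in WT against -19.0 and -12.5 in KO.

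**Figure D1:**
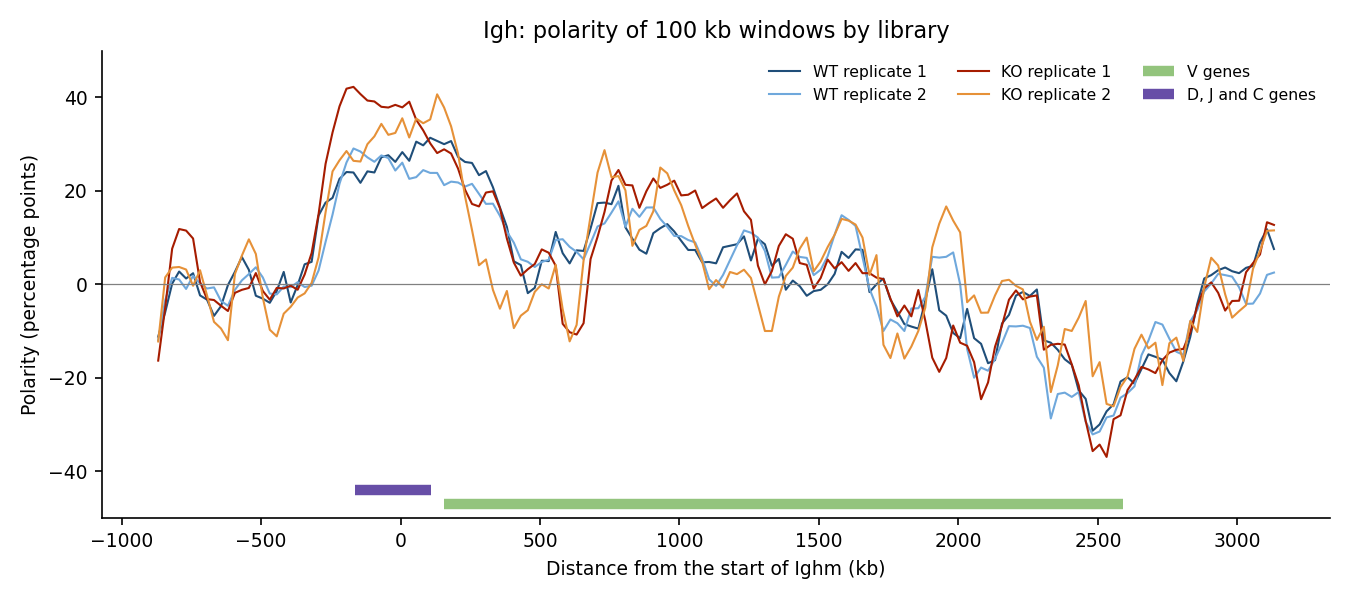
Polarity (points, vertical axis) of each 100 kb window at Igh against the distance of its midpoint from the start of Ighm (kb), 1 line per library; the bars mark the V genes and the D, J and C genes. The WT lines stay above or near 0 from the C genes far into the V array, while both KO lines dip below 0 about 600 kb from Ighm and all 4 reach their lowest values, down to -37.0 points, near the far end of the V genes.

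The length of the stretch was read on the profile of each library smoothed over 5 windows. The stretch above 0 that covers Ighm was 1825 kb long in WT replicate 1, from 113025000 to 114825000, and 2050 kb long in WT replicate 2, from 113075000 to 115100000. Stretches as long made up 0.202% of the 5949 one-sided stretches on the autosomes of WT replicate 1 and 0.0657% of the 6086 of WT replicate 2, where the median was 300 kb. In KO replicate 1 the stretch over Ighm was 925 kb long, ending at 113950000, and in KO replicate 2 it was 675 kb long, ending at 113750000. The share of stretches as long was 10.4% and 16.2% in KO replicates 1 and 2. The mean length was 1137.5 kb shorter in KO (pooled replicate SD 168 kb). That separation rested on the smoothing: with no running mean the stretch over Ighm was 800 kb and 1425 kb long in WT and 925 kb and 650 kb in KO, which overlap, and the difference was -325 kb with a replicate SD of 341 kb. With running means of 3 and 9 windows the genotypes were apart, by -1100 kb and -1275 kb.

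What ended it in the KO libraries was a dip of modest depth. KO replicate 1 was below 0 from 113975000 to 114075000, a stretch of 125 kb with a mean of -3.97 points, and then above 0 again for 1050 kb. KO replicate 2 was below 0 from 113775000 to 114050000, for 300 kb with a mean of -3.25 points, and was above 0 for the next 600 kb. Among windows spaced 100 kb, which do not overlap, the one with the largest difference at Igh lay there, from 114000001 to 114100000 over V genes from Ighv4-2 to Ighv9-1. It read 7.27 and 6.94 points in WT against -10.8 and -8.70 in KO. The difference of -16.8 points (SE 4.50) did not pass the test (limma adjusted p = 0.163 over 23672 windows spaced 100 kb), and 4 of its 6 nearest windows also had both KO libraries below both WT libraries. Among overlapping windows the one from 113975001 differed by more, at -17.5 points. The window was chosen for its difference, so its values are a description.

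The longest one-sided stretch anywhere in Igh, on either side of 0, was the WT stretch above, whereas in KO it was the stretch below 0 over the far V genes, 1300 kb and 1000 kb long in KO replicates 1 and 2. That comparison gave -787.5 kb for KO against WT (pooled replicate SD 187.5 kb). It too rested on the smoothing: with no running mean the longest stretches were 950 kb and 1425 kb in WT and 1150 kb and 700 kb in KO, which overlap, and the difference was -262.5 kb with a replicate SD of 327 kb. With a running mean of 9 windows it was -1025 kb.

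Among rises and falls at Igh, the largest rise ran from 112975000 to 113375000, over Brf1, Btbd6, Pacs2 and Tex22 and 6 of the 8 C genes. Its change was 28.6 and 27.0 points in WT against 39.6 and 40.2 in KO. The largest fall followed directly, from 113375000 to 113875000, across Adam6b and Adam6a, genes that lie among the D and first V genes and serve in sperm. It measured -24.4 and -20.7 points in WT against -34.0 and -37.8 in KO. Both segments were larger in both KO libraries than in either WT library, and neither passed limma's test over 4892 common segments (adjusted p = 0.433 and 0.400). With each library divided by its SD the differences were 0.370 SD for the rise and -0.534 SD for the fall (limma adjusted p = 0.473 and 0.264). The rise out of the dip, from 114025000 to 114175000, had the lowest adjusted p of any segment at these loci on the deposited scale (limma, 0.228), with 9.71 and 6.28 points in WT against 25.5 and 27.2 in KO.

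The V array of Igk, the longest of these loci, did not lie in 1 stretch, and the mean profile turned several times inside it. Polarity was highest just outside the far V genes and lowest at the V genes next to the J genes. The lowest window of the mean profile, from 70600001 to 70700000 over Igkv3-7 to Igkv3-2, read -29.3 and -32.2 points in WT against -36.5 and -32.5 in KO. The window with the highest mean, from 67350001 to 67450000, covers Il12rb2 and Il23r, which encode receptor chains for the cytokines interleukin 12 and interleukin 23. It read 30.5 and 25.7 points in WT against 40.3 and 30.7 in KO. At the J and C genes, 5 windows around Igkj1 to Igkc, the means were -31.9 and -26.2 points in WT against -31.4 and -29.4 in KO. At the C end the genotypes thus differed by less than their replicates did (difference -1.36 points, pooled SD 3.02 points).

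Over the whole V array the genotype means differed by less than the replicates (-0.162 points, pooled SD 1.10 points), while its parts differed in opposite directions. In the far part of the V array the means were 5.80 and 4.77 points in WT against 11.4 and 9.02 in KO. In the near part they were -6.20 and -4.72 points in WT against -14.3 and -7.42 in KO. The parts thus differed from each other by more in both KO libraries than in either WT library. The slope over the 124 V windows was -0.898 and -0.877 points per 100 kb in WT against -1.61 and -1.26 in KO, a difference of -0.548 (pooled SD 0.174). KO replicate 1, with the widest profile of the whole set, had the steepest slope.

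The largest difference among the spaced windows of Igk lay at the far end, in the window from 67700001 to 67800000, which holds V genes and V pseudogenes of the far end, among other genes. WT read 10.8 and 7.41 points there, and KO 31.0 and 28.6 points. The difference of 20.7 points (SE 4.53) had a limma adjusted p of 0.0887, short of the 0.05 threshold, and all 6 of its nearest windows had both KO libraries above both WT libraries. The overlapping window from 67650001 differed by more, at 21.6 points. Both lay in a run of 17 consecutive windows with that separation, from 67475001 to 67975000, across 17 receptor genes from Igkv2-137, the first V gene, to Igkv9-123. Run means were 14.0 and 11.9 points in WT against 30.7 and 23.6 in KO. Runs as long made up 0.615% of the 13016 such runs on the autosomes, in either direction. These runs were picked by their separation, and neighbouring windows share most of their DNA, so no test was made.

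A second run lay in the middle of the array, with the opposite sign. From 69050001 to 69375000, from Igkv13-78-1 to Igkv13-64, 10 windows had 6.40 and 8.81 points in WT against -2.93 and -1.54 in KO. Runs as long made up 4.53% of those on the autosomes. At Igkv3-1, the V gene nearest to the J genes, the genotypes overlapped, with -34.1 and -26.6 points in WT against -30.9 and -29.3 in KO.

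Among the 13 common rises of these loci the largest bordered Igk on its far side, from 66925000 to 67400000, over Gng12, a G protein gamma subunit, Gadd45a, a DNA damage response gene, Serbp1 and Il12rb2. It measured 56.6 and 49.2 points in WT against 71.8 and 58.7 in KO. Only 0.937% of the 2455 common rises were as large in the mean profile. Where segments ended only at a reversal of 1 SD, a Tcra rise of 62.1 points was larger than this one, which then measured 61.5 points. Both KO libraries exceeded both WT libraries, and the difference of 12.3 points had a limma adjusted p of 0.425. With each library divided by its SD that difference was 0.013 SD (limma adjusted p = 0.986). The largest fall, from 70200000 to 70700000 over the V genes nearest to the J genes, was -43.7 and -34.5 points in WT against -49.1 and -38.8 in KO, which overlap. The rise next to Igkc, over Rpia, a sugar phosphate isomerase, Eif2ak3, the kinase PERK of the unfolded protein response, Tex37 and Foxi3, was the most alike of the 24 segments in the 4 libraries: 32.1 and 33.8 points in WT, 34.6 and 30.7 points in KO.

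Part of the Tcra V array could not be compared. All 16 windows of the ranges that lacked a value lay here, with starts from 52800001 and the last end at 53400000, where WT replicates had no value in 11 and 10 windows and KO replicates in 12 and 16. This is 14.2% of the windows of the locus, beside 3.81% of autosomal windows. Of the 66 V genes and V pseudogenes in that span, 65 have symbols with a d or n after the family number, the names given to copies from duplications of the array, beside 9 of the 70 V genes and pseudogenes elsewhere in the locus. Windows at its edge differed between replicates, with KO replicate 2 at 31.8 points and KO replicate 1 at -2.38 points in the window from 53325001 to 53425000. What sets the missing values was not tested.

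The largest difference among the spaced windows of these loci lay in the near part of the Tcra V array. The window from 53800001 to 53900000 holds Trav17, Trav18, Trav19, Trav20, Trav21-dv12 and Trdv1, which encode variable regions of the alpha and delta chains. It read 13.3 and 12.3 points in WT against -13.1 and -7.71 in KO. The sign was opposite in the genotypes, with a difference of -23.2 points (SE 4.57). Its limma adjusted p was 0.0587, just above the threshold, and in all 6 of its nearest windows the higher KO value was under the lower WT value. The overlapping window from 53825001 differed by -24.5 points.

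The run around it held 12 windows, from 53700001 to 54075000, and 23 receptor genes from Trav5-4 to Trdv3. Mean polarity across it was 0.519 and 1.82 points in WT against -17.8 and -16.6 in KO. The replicates of each genotype lay close together over this run, and 2.35% of runs on the autosomes were as long. Toward its high end lies the lowest window of the mean profile at Tcra, from 53975001 to 54075000 over Trav23 and Trdv3, with -24.2 and -20.1 points in WT against -37.7 and -26.5 in KO. In the plotted profiles the descent to this low came earlier along the V genes in both KO libraries than in either WT library.

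At the D, J and C genes the difference was not kept. Around Trdd1, a delta D gene, WT read -25.8 and -20.7 points and KO -12.4 and -11.5 points. Around Trdc, the delta C gene, WT read -25.8 and -20.3 points and KO -16.4 and -11.2 points. Around Trac, the alpha C gene, WT read -24.8 and -21.2 points and KO -29.3 and -17.4 points. KO was thus above WT at the delta genes and on either side of it at Trac. Means over all 8 windows of these genes were -26.1 and -20.9 points in WT against -22.3 and -15.9 in KO, which overlap.

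The far part of the V array was positive in all libraries, at 14.0 and 10.3 points in WT against 19.5 and 15.1 in KO. The near part was negative, at -4.84 and -2.01 points in WT against -10.1 and -7.85 in KO. As at Igk, the slope over the V windows was steeper in both KO libraries, at -3.43 and -2.79 points per 100 kb beside -1.96 and -1.27 points per 100 kb in WT. Trav1, the first V gene, lay near the highest window of the locus, where the olfactory receptor genes Olfr1510 to Olfr1513 border the array, with 32.6 and 24.3 points in WT against 41.0 and 32.9 in KO.

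The largest rise at Tcra lay beyond the C genes, from 54225000 to 54700000, over Dad1, a subunit of the oligosaccharyltransferase, Abhd4, Olfr49 and Oxa1l. It measured 42.9 and 34.0 points in WT against 53.9 and 28.4 in KO, so the KO replicates enclosed the WT replicates. The largest fall, from 53775000 to 54025000, was -43.4 and -37.3 points in WT against -43.2 and -23.0 in KO. KO replicate 2 had the smallest change of the 4 in both segments.

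Most of the Tcrb windows separated the genotypes, with KO higher over the V genes and lower beyond the C genes. Both KO libraries lay on one side of both WT libraries in 45 of 61 windows (73.8%), beside 44.6% of all autosomal windows. Neighbouring windows share most of their DNA. Among windows spaced 100 kb it was 10 of 16 (62.5%), beside 44.7% of all. Over the V genes mean polarity was -4.56 and -6.41 points in WT against 1.19 and 4.13 in KO. In the high-coordinate flank, past the C genes, it was 4.84 and 6.63 points in WT against -5.32 and -7.95 in KO. The means thus had opposite signs in the genotypes in both parts, with differences of 8.15 points (pooled SD 1.74) and -12.4 points (pooled SD 1.59).

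The part between them did not follow. At the D, J and C genes, 4 windows from Trbd1 to Trbc2, means were -14.9 and -13.4 points in WT against -19.1 and -13.1 in KO. At Trbv1, the first V gene, WT read 14.3 and 11.7 points and KO 26.2 and 21.3 points. At Trbv31, the V gene that lies past the C genes in inverted orientation, WT read -14.0 and -8.78 points and KO -19.0 and -10.7 points. The genotypes were therefore apart at the far V genes and overlapped around the C genes.

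The run with the longest separation had 16 windows, from 40725001 to 41200000 and from Trbv1 to Trbv20. Its means were 8.47 and 6.33 points in WT against 19.9 and 17.6 in KO. The next had 13 windows with KO lower, from 41625001 to 42025000, with no receptor gene in it, and means of 8.90 and 8.19 points in WT against -3.39 and -6.15 in KO. Runs as long made up 0.799% and 1.79% of those on the autosomes. Among spaced windows the one with the largest difference lay in the second run, from 41800001 to 41900000, over Pip and Sval2, genes of secreted proteins. It read 8.66 and 3.50 points in WT against -8.06 and -11.5 in KO. The difference of the means was -15.9 (SE 4.59), with an adjusted p of 0.186 by limma. Among overlapping windows that from 41350001 differed most and with the opposite sign, by 17.5 points, with -14.2 and -18.4 points in WT against -4.79 and 7.14 in KO.

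The largest rise of Tcrb in the mean of all libraries ran from 41475000 to 41700000, across the D, J and C genes and into the genes Prss2, a trypsinogen, Ephb6, an ephrin receptor, and the calcium channels Trpv6 and Trpv5. It measured 41.6 and 43.3 points in WT against 33.9 and 15.3 in KO. Replicates differed with an SD of 1.20 points in WT against 13.1 in KO, and the difference of -17.9 points had a limma adjusted p of 0.239. The window around Trpv5 also had both WT libraries above both KO libraries, with 21.3 and 19.1 points in WT, 17.9 in KO replicate 1 and -3.51 in KO replicate 2. KO replicate 2 was the lowest of the 4 in both. The largest fall, from 41700000 to 42200000 over Kel, a blood group protease, Olfr459, Pip and Sval2, was -45.4 and -39.1 points in WT against -47.5 and -27.2 in KO.

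**Figure D2:**
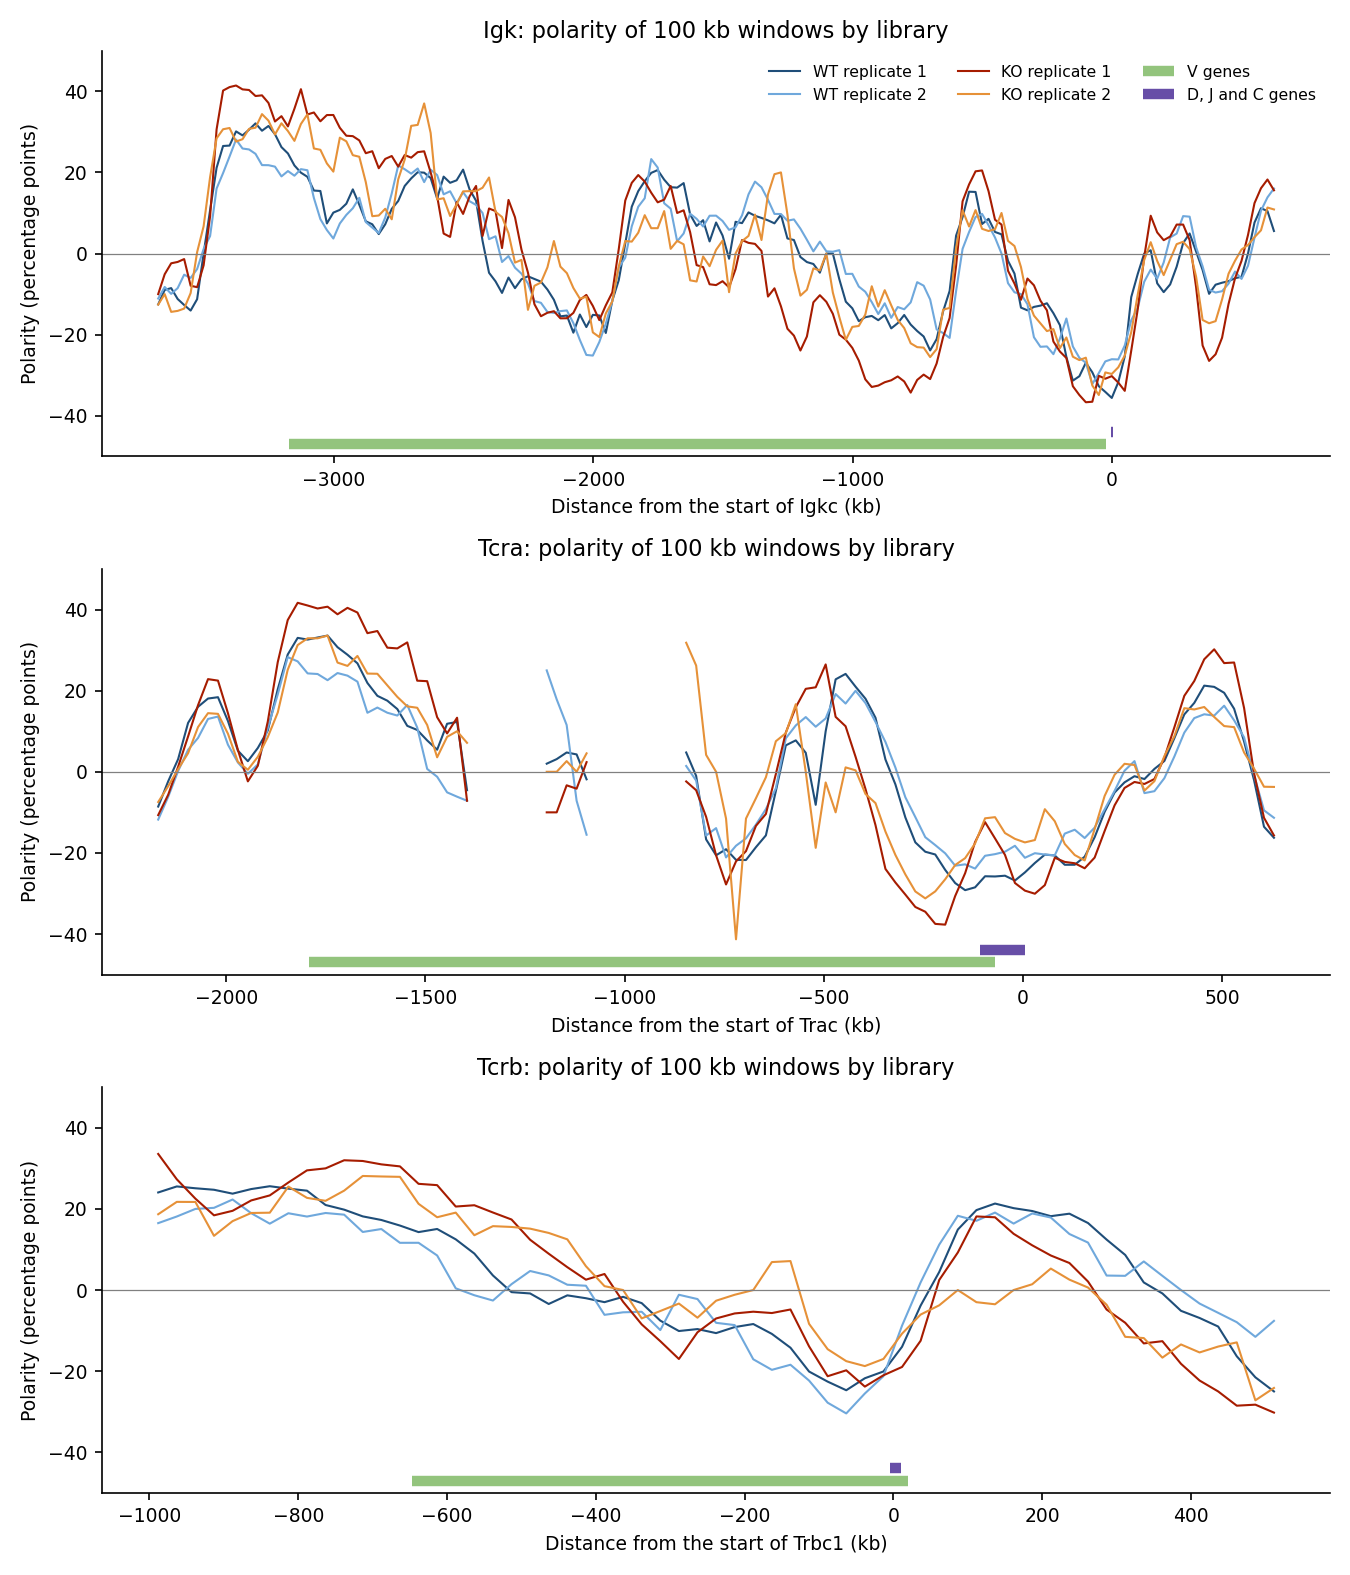
Polarity (points) of each 100 kb window at Igk, Tcra and Tcrb against the distance of its midpoint from the start of Igkc, Trac or Trbc1 (kb), 1 line per library, with bars for the V genes and the D, J and C genes; the lines of Tcra break where a library has no value. KO lines lie above WT lines at the far V genes of Igk and Tcrb, below them at the near V genes of Tcra and past the C genes of Tcrb, and among or on either side of them at Igkc, Trac and Trbc1.

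**Figure D3:**
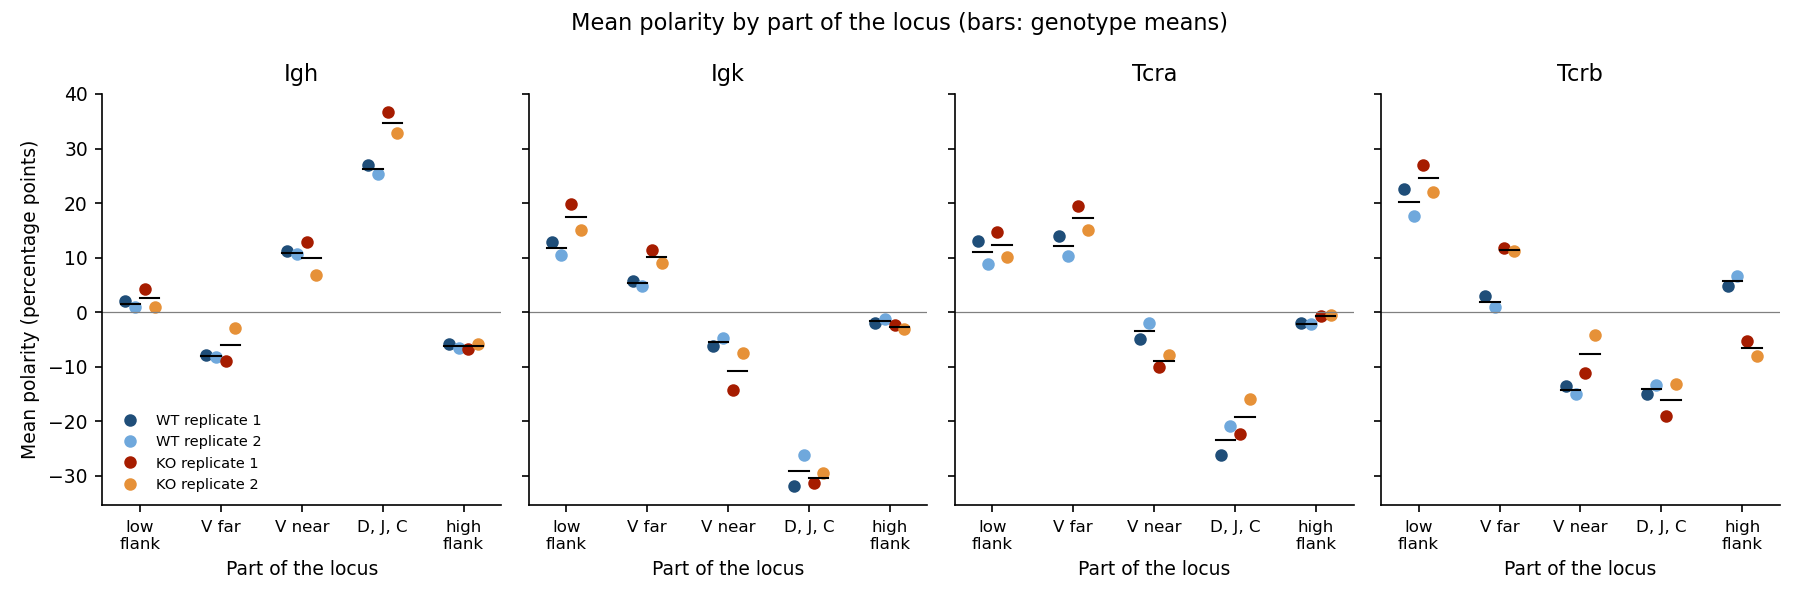
Mean polarity (points) over the windows of each part of a locus, 1 point per library and a short bar for the mean of each genotype (n = 2); far and near are the parts of the V array, divided at its middle, by distance from the C genes, and low and high flank are the ends of the range by coordinate. On the deposited scale, the clearest gaps between genotypes are at the D, J and C genes of Igh (25.4 to 27.1 points in WT, 32.8 to 36.7 points in KO), and at the V genes and the high flank of Tcrb.

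The loci were next compared window by window with the rest of the genome. In limma's fit over all 23672 windows spaced 100 kb, 0 of the 125 windows of these loci passed an adjusted p of 0.05; 0.0549% of all windows did. At an unadjusted p under 0.05 there were 25 of 125 (20.0%), beside 12.2% of all windows. They were unequally spread, with 3 of 41 at Igh, 11 of 44 at Igk, 4 of 24 at Tcra and 7 of 16 at Tcrb. Median absolute differences were 3.63 points at Igh, 5.37 points at Tcra, 6.59 points at Igk and 10.4 points at Tcrb, beside 4.44 points over all windows. The median of Igh was thus below that of the genome and those of the other loci above it.

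How many windows passed depended on the setting. At an adjusted p under 0.1, 2 of 125 did, beside 0.228% of all windows: those from 53800001 at Tcra and from 67700001 at Igk. With limma's trend and robust options 4 passed, beside 1.28% of all: the spaced windows of largest difference at each locus named above (adjusted p = 0.000457 at Tcra, 0.0194 at Igh, 0.0253 at Igk and 0.0325 at Tcrb). With each library divided by its SD, 1 passed, beside 0.372%: the Tcra window (adjusted p = 0.0167). Without KO replicate 1 there were 15 (5.79% of all), without KO replicate 2 there were 37 (20.2% of all), and without WT replicate 1 or without WT replicate 2 there were 0. For the Tcra window the adjusted p ran from 1.3e-06 without KO replicate 2 to 0.887 without WT replicate 1. Its difference kept its sign in every fit, between -26.0 and -20.5 points on the deposited scale.

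Counted by separation, both KO libraries lay on one side of both WT libraries in 226 of 492 windows (45.9%, beside 44.6% of all), and in 57 of the 125 spaced windows (45.6%, beside 44.7% of all). Over the loci together that share is near that of the genome. By locus it was 87 of 173 at Igk and 37 of 97 at Tcra, beside the values for Igh and Tcrb above.

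**Figure D4:**
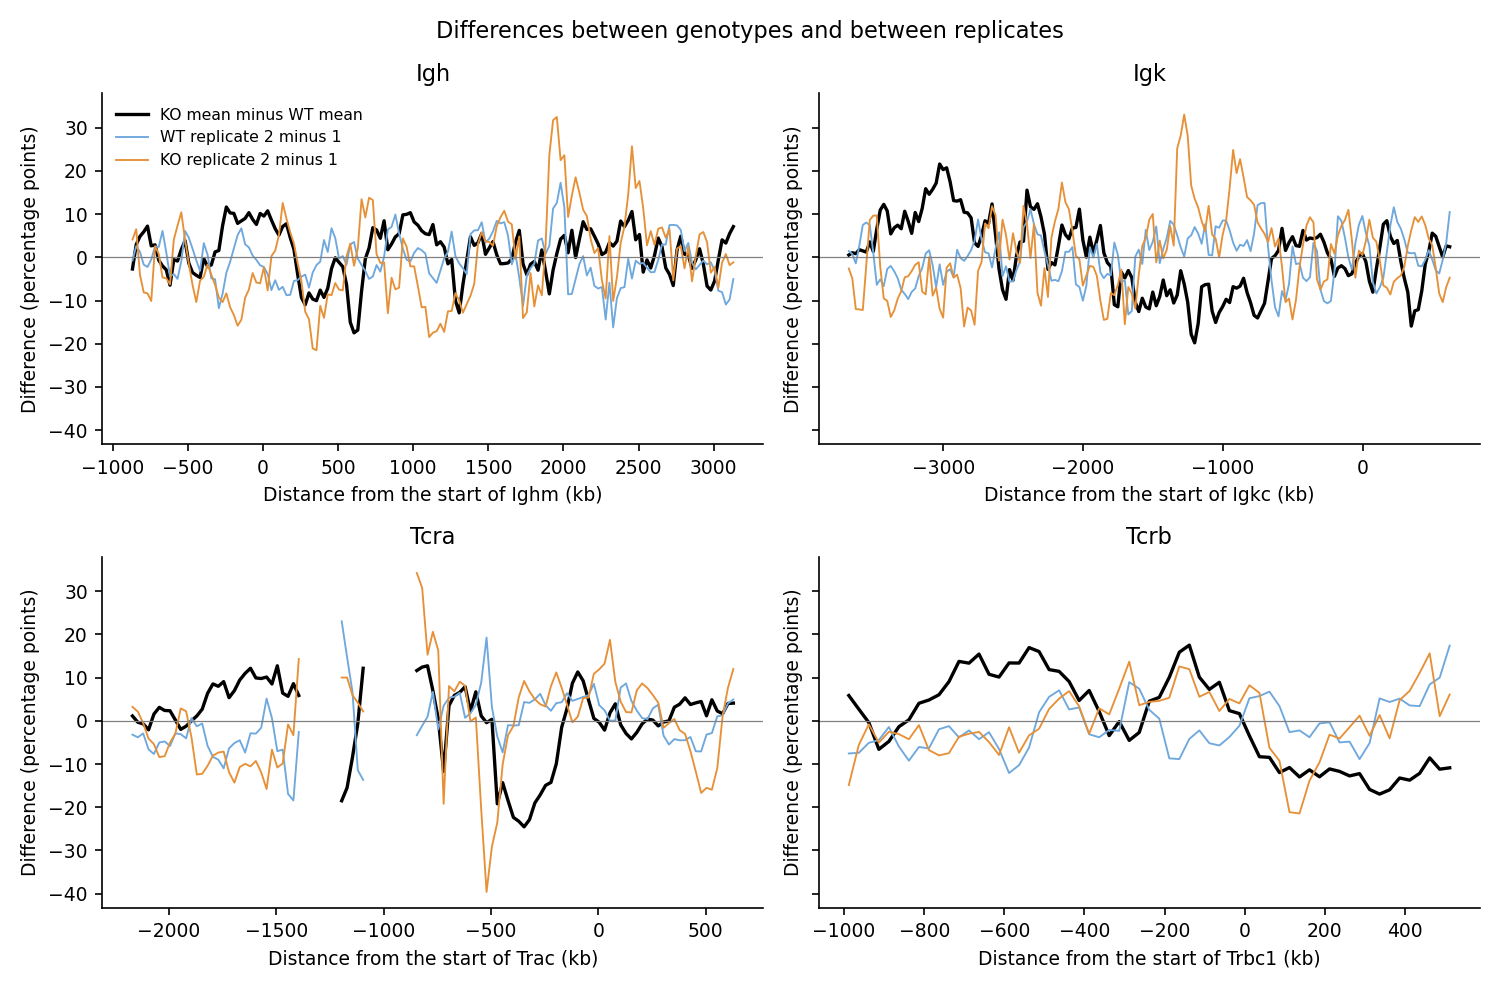
Difference of the genotype means (KO minus WT, black) and of the replicates of each genotype (2 minus 1, blue for WT and orange for KO) in points, for each 100 kb window, against distance from the start of Ighm, Igkc, Trac or Trbc1 (kb). The black line leaves the range of the replicate lines at the Tcra V genes, where it reaches -23.2 points in the spaced windows, and along much of Tcrb. In the lowest window of the mean profile at Igh, over far V genes, the KO replicates differ from each other by more than the genotypes do.

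Of 4892 common rises and falls on the autosomes, 24 have their midpoint in these loci: 13 rises and 11 falls. Their median change of 30.3 points and median length of 287.5 kb are close to the 27.6 points and 275 kb of all segments. None of the 24 passed limma's test at an adjusted p of 0.05 (0.388% of all segments did), and 4 had an unadjusted p under 0.05 (16.7%, beside 12.7% of all). In 11 of 24 both KO libraries lay on one side of both WT libraries, beside 45.5% of all. With each library divided by its SD 7 passed, beside 6.97% of all. The lowest adjusted p on that scale was that of the Tcrb rise from 41475000 (limma, 0.000152), followed by a Tcra rise from 53500000 to 53775000 (limma, 0.000703), with 39.5 and 33.7 points in WT against 30.8 and 10.8 in KO. The others were the Igk rise from 68725000 to 68950000 and the fall before it from 68225000, the largest falls of Tcra and Tcrb, and the Igh rise from 114025000 (limma, 0.0152). Without KO replicate 2 there were also 7, beside 43.2% of all, and without KO replicate 1 there were 4, beside 3.92%.

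**Figure D5:**
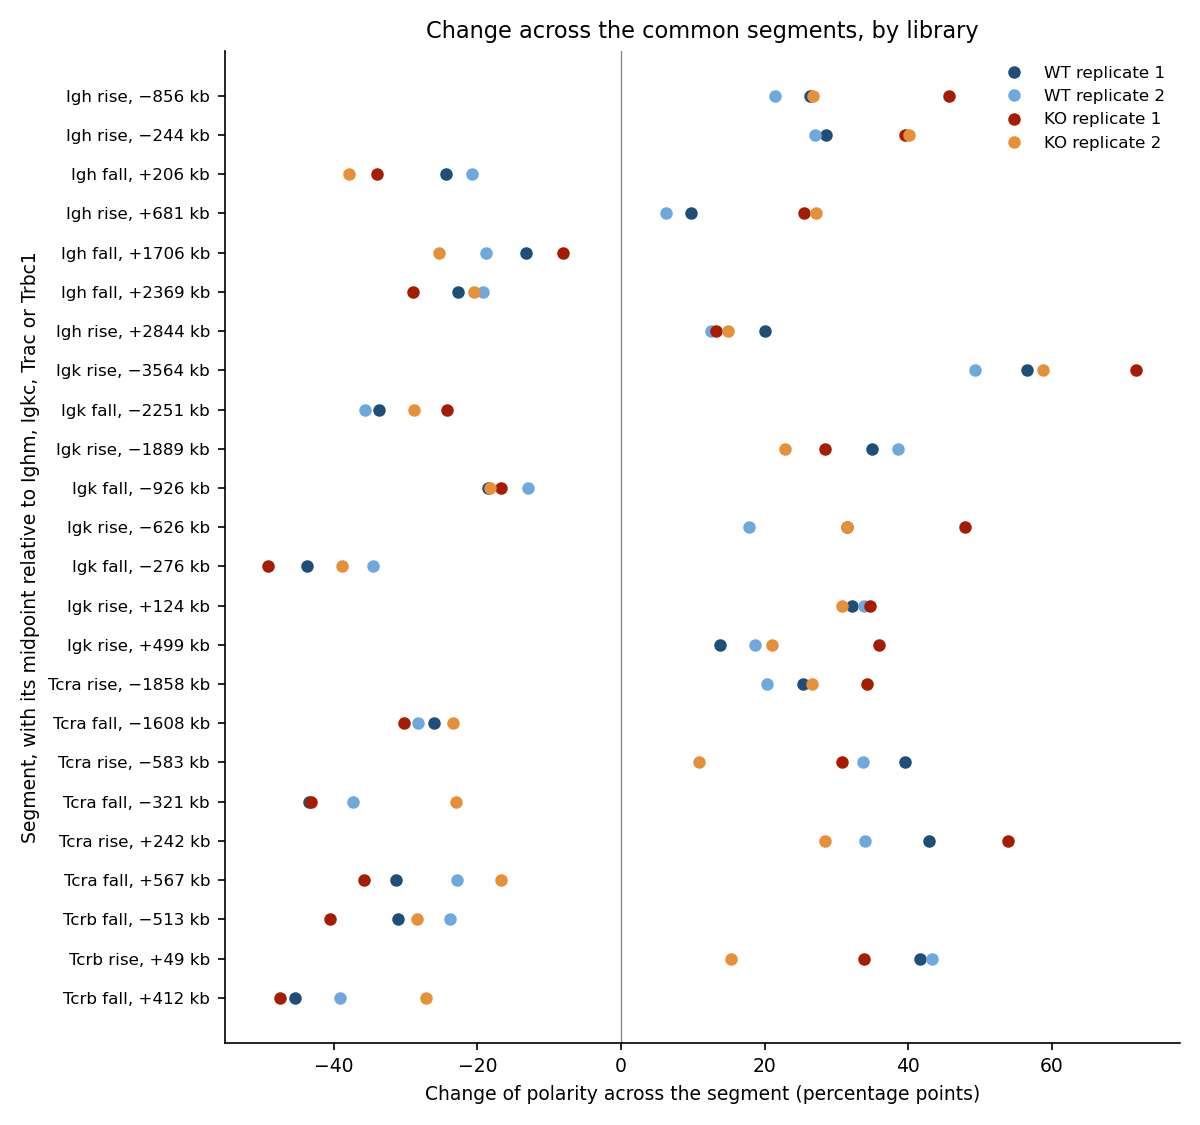
Change of polarity (points, horizontal axis) across each of the 24 common rises and falls, 1 point per library; rows give the locus and the distance of the segment's midpoint from the start of Ighm, Igkc, Trac or Trbc1. The libraries share the sign of every segment, the KO points of the Igh rise at +681 kb (25.5 and 27.2 points) lie apart from the WT points (9.71 and 6.28 points), and KO replicate 2 has the smallest change in several Tcra and Tcrb segments.

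Averaged over a whole locus, the genotypes differed by at most 1.31 points. Mean polarity differed, KO minus WT, by 1.31 points at Igh (pooled SD 0.506), 0.404 points at Igk (pooled SD 0.494), 0.483 points at Tcra (pooled SD 0.269) and 0.241 points at Tcrb (pooled SD 0.619). At Tcrb the opposite differences over the V genes and the high flank offset each other: over the receptor genes alone the difference was 7.26 points (pooled SD 1.82). The signs at Igk, Tcra and Tcrb turned under at least 1 alternative and only that of Igh held in all those run. The SD of polarity over the windows of a locus was higher in KO by 2.19 points at Igh, 4.20 points at Igk, 3.14 points at Tcra and 2.00 points at Tcrb, beside 3.25 points over all autosomal windows. Without KO replicate 1, which had the widest profile, these differences were 0.914, 2.11, 0.184 and -0.109 points. At Igh both KO libraries, 17.5 and 14.9 points, were above both WT libraries, 14.0 and 14.0 points. Igk was likewise separated, with 21.2 and 17.1 points in KO and 15.5 and 14.4 points in WT. After division by each library's own SD the sign of the difference turned at Igh, Tcra and Tcrb, and at Igk the difference was 0.651 points.

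The longest one-sided stretch at the other loci was no shorter in KO. At Igk it lay above 0 over the far V genes, with 1100 kb and 1175 kb in WT and 1250 kb and 1225 kb in KO. At Tcra it was 700 kb in WT replicate 1, above 0 over the far V genes, while in the other libraries it lay below 0 around the D, J and C genes, with 650 kb in WT replicate 2 and 725 kb and 825 kb in KO. Tcrb had 625 kb and 700 kb in WT and 800 kb and 850 kb in KO, above 0 on the far side of the V genes. The stretch covering the C gene itself was 700 kb and 650 kb in WT at Igk and 550 kb and 850 kb in KO, while at Tcra it was 650 kb in both WT libraries and 725 kb and 825 kb in KO. At Trbc1 it was 550 kb and 450 kb in WT and 450 kb and 300 kb in KO. On the smoothed profiles the stretch over the C gene was shorter in both KO libraries than in both WT libraries at Igh alone of these 4 loci, and a test of that difference between loci was not made.

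The smaller receptor loci and the genes of V(D)J recombination were read beside them. At Igl, the lambda light chain locus on chromosome 16, the mean over the 12 windows that overlap the span of its genes was 25.9 and 22.9 points in WT against 30.8 and 15.1 in KO. At Trg, the T cell receptor gamma locus on chromosome 13, the mean over 11 windows was -21.8 and -19.3 points in WT against -22.0 and -17.4 in KO. Both loci had a strong one-sided polarity, in which the genotypes overlapped. In the fit over all overlapping windows 0 windows passed an adjusted p of 0.05 at either locus (limma; 0.076% of all), with 2 at Igl and 0 at Trg at an unadjusted p under 0.05 (12.1% of all).

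Of 25 genes that act in or on V(D)J recombination, a list drawn up for this comparison, 0 lay in a window past an adjusted p of 0.05 in limma's fit over windows spaced 100 kb. With an unadjusted p under 0.05 there were 5 (20.0%, beside 12.2% of all windows), which lie in 4 windows. Both KO libraries were on one side of both WT libraries for 13 of 25 (52.0%, beside 44.7%). Differences ranged from -13.9 to 11.1 points, and the lowest limma adjusted p was 0.237, at Atm, the kinase that answers double-strand breaks, with 4.14 and 1.94 points in WT against -10.3 and -11.3 in KO. Rag1 and Rag2, which encode the recombinase, share a window that read -22.5 and -19.7 points in WT against -37.0 and -28.6 in KO (limma adjusted p = 0.330). Xrcc5, which encodes the Ku80 subunit of the end-joining machinery, had 25.0 and 21.8 points in WT against 37.1 and 31.9 in KO (limma adjusted p = 0.339). Prkdc, which encodes the DNA-dependent protein kinase of the same machinery, had -15.5 and -9.45 points in WT against -6.43 and 3.61 in KO (limma adjusted p = 0.366). At Rag1, Rag2 and Xrcc5 the KO values were further from 0 on the side of the WT values, whereas at Atm they were on the other side of 0; these genes were named after their values were seen.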

How the data were processed

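TrAEL-seq libraries of 2 WT and 2 Snf2h KO cultures were grouped and numbered by the labels. The deposited table holds 1 score per window and library, a signed strand imbalance in points. Per the file headers, the authors deduplicated reads and aligned them to GRCm38 with an rRNA sequence. Per the submitters' processing notes, Trim Galore 0.6.5 and Bowtie2 2.4.1 were used. The program that gave the scores, the strand counted as positive and any read minimum are not given in the sources used here. Without counts, no depth, interval or floor could be computed; windows with few reads have coarse values and more spread.

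Windows of full length on 19 autosomes with a value in all 4 libraries were fitted with limma 3.58.1 in R 4.3.3 (lmFit, eBayes), KO against WT, with Benjamini-Hochberg adjustment over 23672 windows spaced 100 kb or 94694 overlapping windows, and over 4892 common segments. The labels give separate cultures, and beside a difference the SD is pooled over both genotypes (n = 2 each). A one-sided stretch ends where the mean of 5 windows changes sign or over 100 kb has no value. Parts of a locus were bounded by RefSeq gene symbols (GRCm38.p6).

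Named were, by a fixed rule, C, D and J genes, the first and last V gene, up to 3 coding genes on each side, and per locus the window of largest difference (among those spaced 100 kb), the highest and lowest of all windows, and the largest rise and fall with up to 4 genes. The members, lists and tests were chosen with earlier results of these data known. Consecutive separated windows, the stretch over the C gene, the promoters, the smaller loci and segments that end at a reversal of 1 SD were added after seeing the data. The fits were tested on simulated data. Python 3.11.15, numpy 2.4.6 and pandas 2.3.3 were used. The replicate numbers shared by the genotypes were tried as a block. Alternatives also covered scaling, centring, limma's options, running means, window sets and each library left out.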

Additional observations from a re-analysis of the deposited data

How the results depend on the processing

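Of 58 alternatives that kept all 4 libraries, 36 left their result within 1.5 times of a count or within the replicate SD of a value, 14 moved it further and 8 turned its sign. Windows called (0 of 125) stayed at 0 with X (0.0438% of all), centring (0.0507% of all) and an atanh scale. On the atanh scale 0 of all 23672 windows passed, so that count cannot tell these loci from the rest. Of overlapping windows 0 of 492 passed (0.076% of all). Windows called were 1 with standardised libraries (0.372% of all) and 4 with limma's trend and robust options (1.28% of all). At an adjusted p under 0.1 there were 2 (0.228% of all). With overlapping standardised windows there were 10 of 492 (0.686% of all), an alternative added after seeing the data. Leaving out 1 library gave 0 to 37 windows. Segments called (0 of 24) were 7 with standardised libraries (6.97% of all). They stayed at 0 with trend and robust (0.634% of all) and at an adjusted p under 0.1 (1.19%). Running means of 3 and 9 windows gave 0 of 27 (0.236% of all) and 0 of 23 (0.31%). A minimum change of 0.5 SD gave 0 of 38 (0.0562%), and segments ending at a reversal of 1 SD gave 0 of 21 (0.14%). With 1 library left out, the lone library of a genotype is assumed to vary like those of the other genotype. Counts from those fits are therefore not given.

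The numbers 1 and 2 are shared by the genotypes, and same-numbered libraries deviated together with a correlation of 0.241 over all spaced windows and 0.228 over those of these loci, from 2 pairs, which is too few to pair them. With the replicate block 9 windows (2.66% of all) and 4 segments (9.96% of all) passed, and 14 windows (3.62% of all) with the replicate block and standardised libraries. Among the 9 were the spaced windows of largest difference at each locus (limma adjusted p = 0.000368 at Tcra, 0.00213 at Igk, 0.0163 at Igh and 0.0259 at Tcrb).

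Mean differences per locus moved from 1.31 to 0.662 points at Igh on standardised libraries. They turned to -0.16 points at Igk over receptor genes alone, to -0.0943 points (windows spaced 100 kb) and -0.174 points (receptor genes alone) at Tcra, and to -0.106 points (windows spaced 100 kb) and -0.419 points (standardised libraries) at Tcrb; over its receptor genes alone Tcrb had 7.26 points. With 1 library left out they ran from 0.936 to 1.68 points at Igh, -0.0847 to 0.894 at Igk, 0.248 to 0.717 at Tcra and -0.345 to 0.827 at Tcrb. Differences of the profile SD turned on standardised libraries to -0.945 points at Igh, -0.646 at Tcra and -1.35 at Tcrb, and moved to 0.651 at Igk. With 1 library left out they ran from 0.914 to 3.47 points at Igh, 2.11 to 6.29 at Igk, 0.184 to 6.09 at Tcra and -0.109 to 4.12 at Tcrb, lowest in each case without KO replicate 1. The longest Igh stretch differed by -262.5 kb with no running mean, -1025 kb with 9 windows, -850 kb about each library's mean, and -937.5 to -637.5 kb with 1 library left out. The stretch over Ighm, for which the alternatives were chosen after seeing the data, differed by -325 kb with no running mean, -1275 to -1100 kb with the other settings and -1262.5 to -1012.5 kb with 1 library left out. The causes of these moves were not tested. Unknown depth limits all values, and in the Tcra V array some windows also had no value.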

Other observations

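The share of windows above 0 lay between 47.4% and 60.2% over all loci and libraries, beside 48.9% to 49.4% over all autosomal windows. Igh had 58.4% and 60.2% in WT and 55.9% and 53.4% in KO, so both KO libraries lay below both WT libraries. At Igk (49.1% and 54.3% in WT, 48.6% and 52.0% in KO) and at Tcrb (50.8% and 59.0% in WT, 55.7% and 50.8% in KO) the genotypes overlapped.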
